A study of Sus scrofa with 6 samples.

Results

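AP-1 and other immediate early factors are transcription factors whose mRNA appears within minutes of a stimulus, and 10 of them were chosen by symbol: FOS, FOSB, JUN, JUNB, JUND, ATF3, EGR1, MYC, MAFF and CSRNP1. A row of the deposited table of 25322 genes carried the current symbol of 7 of the 10. The other 3, FOSB, JUN and JUND, were matched to no row and are not analysed here. The list was proposed with the altitude difference of these genes already in view, so their levels at the 2 altitudes are given as a description without a test.

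The tissue was longissimus dorsi muscle, which runs along the spine, from 6 healthy female Tibetan pigs, each animal giving 1 RNA sequencing library. At high altitude, on average 4000 m in the Tibetan highland, 3 pigs ranged freely. At low altitude, on average 500 m in the Chengdu plain, 3 Tibetan pigs were fed daily under experimental conditions and came from a line kept in the lowland for nearly 10 generations. Husbandry, region and the origin of the line therefore go along with altitude, and their effects cannot be told apart. The age of the animals, the hour of sampling and the time since the last meal or movement are not stated by the labels.

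AP-1 is a dimer of leucine zipper proteins of the FOS, JUN, ATF and MAF families, and the partners decide which DNA sites are bound and whether transcription goes up or down. The genes for FOS, JUNB, EGR1 and ATF3 need no new protein for their induction: serum response factor with its ternary complex partners and CREB sit on their promoters and respond to MAP kinases and calcium. Their mRNAs are short-lived, so a level reflects the recent past of the tissue. In skeletal muscle they are known to respond to contraction, stretch, injury and handling.

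Levels are FPKM (fragments scaled by the length of the gene and the size of the library), which allows genes to be compared with each other. The libraries summed to FPKM of 506611 to 571855, and relative depths read from the spacing of low values were 0.858 to 1.22, with no separation of the groups. Absolute depth is unknown, so no counting interval is given. Of the muscle fibre markers with a row, 5 of 6 passed the filter on low values, and the sixth, the skeletal actin ACTA1, was listed at 0 in 4 libraries, a value that can be a failed estimate. High altitude library 1 stood apart from the rest: its summed FPKM of 6 fibroblast and matrix markers was 253, against 864 and 974 in the other high altitude libraries and 701 to 1087 at low altitude.

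All 7 factors had a higher mean at 500 m than at 4000 m, by 1.76-fold for EGR1 to 5.57-fold for FOS, and all 7 log2 differences (low minus high) were above 0, as were those of 57.7% of all tested genes. In FOS, ATF3, MYC, MAFF and CSRNP1 the 3 low altitude animals lay above the 3 high altitude animals, and in JUNB and EGR1 the groups overlapped. Of all 10005 genes that passed the filter (3 or more libraries with an FPKM of 1 or higher), 11.3% had groups that did not overlap with the higher values at low altitude. By limma with Benjamini-Hochberg adjustment over all of them, 0.23% changed at an adjusted p under 0.05 and none of the 7 was among these. At an unadjusted p under 0.05 the same limma fit held 6 of the 7, and 9.42% of all tested genes. Since the 7 were listed for this contrast, nothing is read from these counts. All 7 passed the filter.

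**Figure D1:**
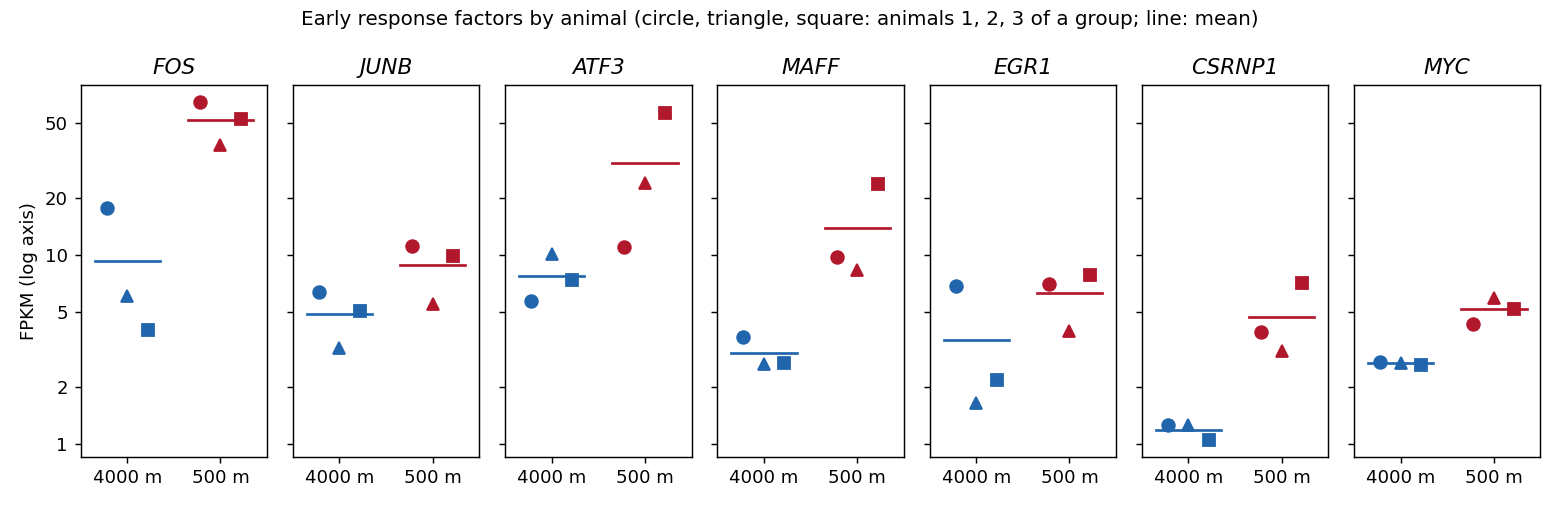
FPKM on a log axis for each of the 7 factors, in 3 animals at 4000 m (blue) and 3 at 500 m (red); symbols mark the animal number within a group and lines the group mean. FOS, ATF3, MAFF, CSRNP1 and MYC show no overlap, while high altitude animal 1 reaches the low altitude range for EGR1 and JUNB.

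FOS, the AP-1 subunit that binds DNA only as a partner of a JUN protein, had an FPKM of 17.7, 6.08 and 3.999 in high altitude animals 1, 2 and 3 and of 64.6, 38.1 and 52.2 in the low altitude animals. The lowest low altitude animal was 2.15-fold above the highest high altitude animal. The means were 9.27 ± 7.40 (SD, n = 3) and 51.6 ± 13.3, a ratio of 5.57, which was 10.2 without high altitude animal 1. Leaving out any other animal gave 4.34 (without high altitude animal 3) to 6.30 (without low altitude animal 2). On average FOS stood at percentile 61.4 of tested genes at 4000 m and at percentile 92.4 at 500 m. Taken on the log2(FPKM + 1) scale, low minus high, the difference was 2.56 (SE 0.47).

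JUNB, a JUN family partner of FOS that often restrains JUN, differed less. It had 6.33, 3.21 and 5.05 FPKM at 4000 m and 11.1, 5.51 and 9.88 at 500 m, so low altitude animal 2 lay below high altitude animal 1. The means were 4.86 ± 1.57 and 8.84 ± 2.95 (SD, n = 3), 1.82-fold apart. FOS was also higher relative to JUNB: the ratio of FOS to JUNB within a library was 2.80, 1.90 and 0.792 at 4000 m and 5.80, 6.90 and 5.29 at 500 m. A ratio within a library does not depend on how libraries are scaled, and the groups did not overlap in it.

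ATF3, a stress-induced member of the ATF family that mostly represses transcription as a homodimer, had 5.73, 10.2 and 7.34 FPKM at 4000 m and 10.96, 24.1 and 56.7 at 500 m. The groups were separated by little, since the lowest low altitude animal was 1.08-fold above the highest high altitude animal. Among the low altitude animals the highest value was 5.17 times the lowest, the widest span within a group among the 7 genes. The means were 7.75 ± 2.25 and 30.6 ± 23.6 (SD, n = 3), a ratio of 3.95 that was 2.26 without low altitude animal 3.

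MAFF, a small MAF protein that binds DNA but has no activation domain of its own, had 3.70, 2.66 and 2.68 FPKM at 4000 m and 9.81, 8.30 and 23.6 at 500 m. Here the gap between the groups was 2.24-fold. Its means were 3.01 ± 0.595 and 13.9 ± 8.45 (SD, n = 3), 4.62-fold apart with all animals and 3.004-fold without low altitude animal 3.

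CSRNP1, a nuclear protein that activates transcription and was first described as induced by AXIN1, had the lowest mean level of the 7 at either altitude and the widest gap between the groups, 2.48-fold. It had 1.26, 1.26 and 1.05 FPKM at 4000 m and 3.91, 3.12 and 7.08 at 500 m, with means of 1.19 ± 0.119 and 4.70 ± 2.09 (SD, n = 3). The high altitude values lay just above the FPKM of 1 used in the filter, at percentile 8.92 of tested genes. The log2(FPKM + 1) scale shrinks differences at such levels: the log2 difference was 1.32 with a pseudocount of 1 and 1.82 with 0.1.

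EGR1, a zinc finger factor induced through serum response factor, had 6.85, 1.65 and 2.18 FPKM at 4000 m and 7.001, 3.94 and 7.85 at 500 m. High altitude animal 1 was above low altitude animal 2 and close to the other 2 low altitude animals. The means of 3.56 ± 2.86 and 6.26 ± 2.06 (SD, n = 3) were 1.76-fold apart, and 3.27-fold apart without high altitude animal 1. Leaving out any other animal gave 1.39-fold (without high altitude animal 2) to 2.08-fold (without low altitude animal 2). The ratio of FOS to EGR1 within a library was 2.59, 3.68 and 1.83 at 4000 m and 9.23, 9.67 and 6.66 at 500 m, again without overlap. The ratio of FOS to MYC did overlap, with 6.56, 2.27 and 1.53 at 4000 m and 14.9, 6.42 and 10.1 at 500 m. These ratios carry the altitude difference FOS was listed for and are a description.

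MYC, the growth-promoting factor that works as a dimer with MAX, was the least variable. It had 2.70, 2.68 and 2.61 FPKM at 4000 m and 4.34, 5.93 and 5.17 at 500 m, with means of 2.66 ± 0.0510 and 5.15 ± 0.796 (SD, n = 3). The gap between the groups was 1.60-fold and the ratio of the means 1.93, which stayed between 1.79 and 2.08 when each animal was left out in turn.

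The order of the factors by level changed from animal to animal. FOS had the highest FPKM of the 7 in high altitude animal 1 and in low altitude animals 1 and 2, and ATF3 in the other 3. CSRNP1 was lowest in all animals except low altitude animal 3, where MYC was. By group mean the order was FOS, ATF3, JUNB, EGR1, MAFF, MYC and CSRNP1 at high altitude. At low altitude MAFF moved ahead of JUNB and EGR1, and the order was otherwise as at high altitude. Many neighbours in these orders lie within 1 SD of each other, such as EGR1 and MAFF at high altitude (3.56 ± 2.86 and 3.01 ± 0.595) and JUNB and EGR1 at low altitude (8.84 ± 2.95 and 6.26 ± 2.06).

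The spread within a group was wide for most of them, and it is not independent of their choice by altitude. With 3 animals, 1 extreme value can raise both a group mean and its SD. As a pooled SD of log2(FPKM + 1) within groups the spread was 0.84 for ATF3, 0.75 for FOS, 0.67 for EGR1, 0.55 for MAFF, 0.44 for JUNB, 0.36 for CSRNP1 and 0.13 for MYC. Among tested genes these stood, in the same order, at percentiles 97.9, 96.9, 95.9, 93.4, 88.7, 81.2 and 19.5. The percentiles are not matched for level and are a description. The spread was not on the same side for all genes. FOS and EGR1 spread more at high altitude (SD of 0.99 and 0.84 against 0.38 and 0.45 at low altitude). ATF3, MAFF and CSRNP1 spread more at low altitude (1.14, 0.76 and 0.50 against 0.37, 0.21 and 0.08). With 3 animals per group these SDs were not compared by a test.

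High altitude animal 1 had the highest value of its group in 6 of the 7 genes and the lowest in ATF3. In CSRNP1 and MYC it was barely above animal 2 (1.259 against 1.257 and 2.70 against 2.68 FPKM). Relative to the group mean on the log2(FPKM + 1) scale it was 1.10 higher for FOS and 0.96 higher for EGR1, and for ATF3 it was at −0.35. This is the library with the lowest matrix marker sum. Of 7 smooth muscle and pericyte markers with a row, 6 had their lowest value of the 6 libraries there, with a summed FPKM of 85.2 against 113 to 127 in the others. Its adipocyte sum over 2 markers was 3.88 against 4.52 to 21.97, with both lowest there. The endothelial sum over 4 markers was 31.7 against 38.3 to 54.3, but only 1 of the 4, PECAM1, was lowest there. KDR, at 5.74, was above the low altitude animals (1.90, 4.75 and 1.97), and TEK and ERG were lowest in low altitude animal 3. The part of tissue composition in the values of this animal was not tested. In bulk tissue, fewer cells of a type and less RNA per cell cannot be told apart.

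At low altitude, animal 3 had the highest ATF3, MAFF, CSRNP1 and EGR1, at 1.16, 0.86, 0.56 and 0.33 above its group mean. Animal 2 had the lowest value of the group in 5 of the 7 genes, FOS, JUNB, EGR1, MAFF and CSRNP1, and the highest MYC. Markers of immune cells in low altitude animal 3 differed by cell type. Of 6 macrophage markers with a row, 5 had their highest value of the 6 libraries there. Their summed FPKM was 21.7 in that animal, 9.75 and 10.2 in the other low altitude animals and 11.4 to 13.5 at high altitude, while CSF1R was highest in high altitude animal 3 and listed at 0 in high altitude animal 2. Both neutrophil markers with a row, S100A8 and CSF3R, were highest there too, with a summed FPKM of 2.76, against 1.17 and 1.34 in the other low altitude animals and 0.265 to 0.749 at high altitude. Of 6 lymphocyte markers with a row, 3 were highest there and 3 at high altitude, and their summed FPKM was 11.9, against 4.87 and 5.47 in the other low altitude animals and 8.75 to 10.6 at high altitude. The part of these cells in the ATF3, MAFF and CSRNP1 values was not tested. Without that animal the means were 2.26-fold apart for ATF3, 3.004-fold for MAFF and 2.96-fold for CSRNP1.

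**Figure D2:**
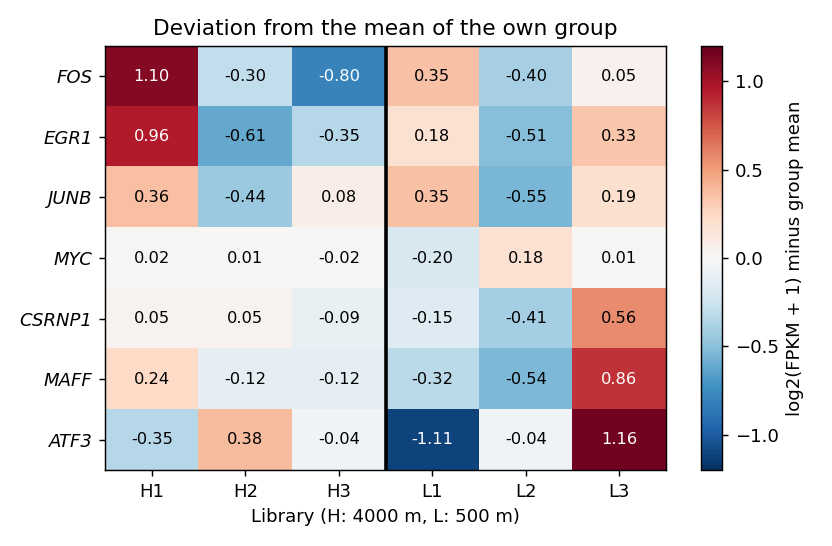
Deviation of each library from the mean of its own group in log2(FPKM + 1), with red above and blue below; H1 to H3 are the animals at 4000 m and L1 to L3 those at 500 m. FOS and EGR1 deviate most in H1 (1.10 and 0.96), and ATF3 deviates most in L1 and L3 (−1.11 and 1.16).

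Some pairs of genes deviated alike. As a measure of likeness, the absolute difference between the deviations of 2 genes was averaged over the 6 libraries, so that 0 means the same pattern within groups. The closest pair was MAFF and CSRNP1 (0.16), followed by CSRNP1 and MYC (0.22), FOS and EGR1 (0.25) and EGR1 and JUNB (0.25). The farthest was FOS and ATF3 (0.97), followed by EGR1 and ATF3 (0.87). MYC hardly deviated in any library, which keeps its difference from quiet genes small.

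The distance between FOS, EGR1 and JUNB on one side and ATF3 on the other can be read from ratios within a library. FOS to ATF3 was 3.09, 0.598 and 0.545 in high altitude animals 1, 2 and 3, and 5.90, 1.58 and 0.921 in the low altitude animals. EGR1 to ATF3 was 1.19, 0.162 and 0.297, and then 0.639, 0.163 and 0.138. JUNB to ATF3 was 1.10, 0.316 and 0.687, and then 1.02, 0.229 and 0.174. In all 3 ratios the groups overlapped, and in each group 1 animal, numbered 1 in both by the labels, had the highest ratio. ATF3 had its lowest value of the group in that animal each time. The labels give the shared number no meaning.

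**Figure D3:**
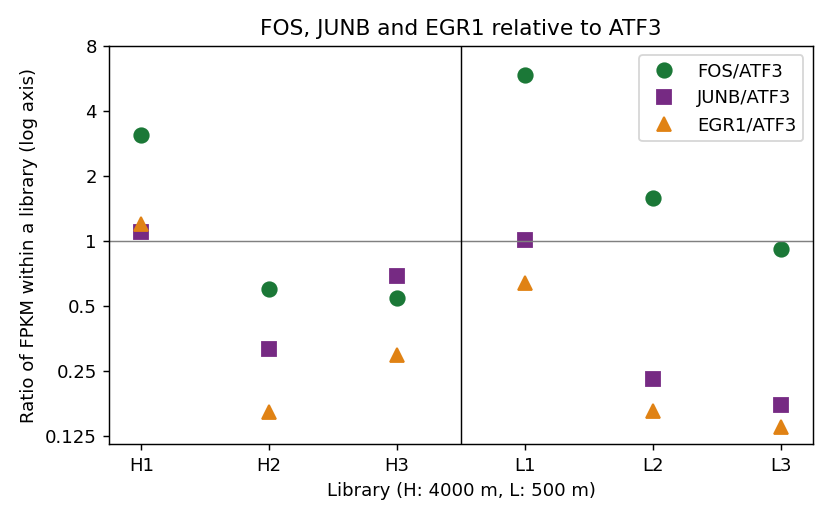
FPKM of FOS, JUNB and EGR1 divided by that of ATF3 in the same library, on a log axis, for animals at 4000 m (H) and 500 m (L). H1 and L1 have the highest ratios of their groups for all 3 genes, such as 3.09 and 5.90 for FOS.

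Over the whole profile, altitude difference included, likeness was measured in the same way on log2(FPKM + 1) minus the gene's mean over the 6 libraries. The nearest of the other factors was MAFF for FOS (0.69), CSRNP1 (0.22) and ATF3 (0.46), CSRNP1 for MAFF (0.22) and MYC (0.39), EGR1 for JUNB (0.27) and JUNB for EGR1 (0.27). Among all tested genes, MAFF had rank 25 in nearness to FOS, 14 to CSRNP1 and 16 to ATF3. CSRNP1 had rank 3 to MAFF, EGR1 rank 130 to JUNB and JUNB rank 14 to EGR1. To MYC, CSRNP1 had only rank 5690, so most tested genes were nearer to MYC, and JUNB was about as near (0.39). Of all tested genes with a symbol, those nearest to FOS were RASGEF1B (0.31), CCN1 (0.35) and SPIDR (0.53). RASGEF1B, a guanine nucleotide exchange factor, had 3.33, 1.42 and 1.09 FPKM at 4000 m and 12.4, 8.17 and 13.1 at 500 m. CCN1, a matrix protein induced by growth factors and stretch, had 7.74, 3.17 and 4.31 and then 60.9, 23.3 and 34.8, with the highest value of each group in animal 1, as for FOS. SPIDR, a scaffold of DNA repair, had 2.24, 0.782 and 2.13 and then 9.98, 4.50 and 11.5. These genes were picked as nearest to FOS on the same libraries, so an order shared with FOS partly follows from the choice.

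Nearest to EGR1 were MT1X (0.14), TMEM82 (0.16) and GALNT15 (0.16). MT1X, a metallothionein that binds zinc and copper, had 21.8, 5.07 and 7.44 FPKM at 4000 m and 17.7, 10.7 and 15.8 at 500 m. High altitude animal 1 was thus the highest of all 6 in it, and its reads may be shared with other metallothionein genes. TMEM82 and GALNT15 had mean FPKM under 2 in either group, with high altitude animal 1 highest of its group in both. Since these genes were picked as nearest to EGR1 on the same libraries, the place of that animal partly follows from the choice.

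The other genes of the pathway were read from lists by role, with 95 distinct tested genes beside the 7. In limma with Benjamini-Hochberg adjustment over all 10005 genes, 2 of the 95 passed as higher at low altitude and none as lower, and 53 had an estimate above 0. The 2 that passed entered the test only through the low altitude libraries, where they are high, so this count is a description. At an unadjusted p under 0.05 the same limma fit held 23 higher and 3 lower. Of all tested genes, 0.23% passed the threshold, 57.7% had an estimate above 0 and 9.42% had an unadjusted p under 0.05 in either direction. These shares are also the background for the counts per list below. The median log2 difference of the 95 was 0.06, against 0.04 over all tested genes.

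Both genes that passed were other early response genes, a list chosen with earlier results of these data known. Their high altitude values all lay under the FPKM of 1 used in the filter. Both thus entered the test only through the low altitude libraries, where they are high, and their limma calls are given as a description. NR4A2, an orphan nuclear receptor, had 0.437, 0.653 and 0.635 FPKM at 4000 m and 9.52, 10.6 and 7.91 at 500 m, with a log2 difference of 2.71 (SE 0.15, limma, Benjamini-Hochberg adjusted p = 0.00132). KLF10, a zinc finger factor induced by TGF-beta, had 0.471, 0.942 and 0.935 and then 5.59, 6.32 and 6.81 (2.03, SE 0.16, adjusted p = 0.00667 in the same limma fit). Neither had its highest value of the high altitude group in animal 1, unlike FOS and EGR1. KLF10 did not pass without high altitude animal 3 or without low altitude animal 3, which leaves 1 passing gene in each of those fits. Of the 15 tested genes of this list 13 had estimates above 0, with a median of 0.90, and 57.7% of all tested genes had an estimate above 0. Without passing the threshold, CCN1 was 7.82-fold apart, GADD45B, a growth arrest factor, 3.68-fold (3.40 ± 0.736 and 12.5 ± 4.22), NR4A3 4.43-fold (0.920 ± 0.697 and 4.08 ± 2.03) and KLF4 2.04-fold (4.89 ± 1.13 and 9.96 ± 1.73), with limma adjusted p of 0.0746 to 0.301 (Benjamini-Hochberg).

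Feedback genes, which switch the early response off, had 0 of 9 past the threshold and 4 higher at an unadjusted p under 0.05 in limma. DUSP1, the phosphatase that inactivates p38 and JNK, had 56.2, 23.5 and 24.7 FPKM at 4000 m and 124.5, 83.5 and 73.0 at 500 m. As with FOS, its highest value in each group was in animal 1, and the groups did not overlap. DUSP1 was named for its low unadjusted p in limma, and 11.3% of all tested genes had such groups, higher at low altitude. NFKBIA, the inhibitor of NF-kappaB, was at 13.3 ± 4.24 and 26.1 ± 1.80 (SD, n = 3), ZFP36L1, which speeds the decay of AU-rich mRNAs, at 22.9 ± 2.22 and 35.4 ± 4.18, and SPRY2, a brake on receptor signalling, at 4.97 ± 0.555 and 6.66 ± 0.426. Their limma adjusted p-values with Benjamini-Hochberg adjustment were 0.273 to 0.458. The median log2 difference of the 9 was 0.06.

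The regulators that act on these promoters had 0 of 13 past the threshold in limma, 2 at an unadjusted p under 0.05, and a median log2 difference of 0.00. SRF, the serum response factor itself, was named outside the rule for its role, after its values were seen. It had 15.8, 18.4 and 24.4 FPKM at 4000 m and 16.4, 17.3 and 16.6 at 500 m, which overlap. The coactivator CREBBP was at 3.94 ± 0.382 and 5.68 ± 0.687 (SD, n = 3), its relative EP300 at 6.74 ± 1.03 and 8.02 ± 0.416, ELK4, an ETS partner of SRF, at 1.00 ± 0.201 and 1.57 ± 0.174, and CRTC2, a CREB coactivator, at 6.26 ± 0.774 and 7.69 ± 0.600. Of 18 upstream kinases 0 passed, with 2 higher and 1 lower at an unadjusted p under 0.05 in limma, and the median was −0.03. MAP2K6, which activates p38, had 2.45, 2.69 and 2.82 FPKM at 4000 m and 4.87, 4.82 and 4.82 at 500 m (log2 difference 0.68, SE 0.12, limma, Benjamini-Hochberg adjusted p = 0.122). MAP2K7, which activates JNK, was at 9.496 ± 0.744 and 13.7 ± 1.74, BRAF at 3.57 ± 0.539 and 4.55 ± 0.407, and the p38-activated kinase RPS6KA4 at 2.75 ± 0.485 and 1.95 ± 0.0596.

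Other members of the same families were poorly covered. Of 14 further AP-1 family genes 5 had a row and 2 passed the filter: ATF7 (5.93 ± 1.19 and 6.36 ± 0.613, SD, n = 3) and the FOS relative FOSL1 (1.34 ± 0.758 and 1.36 ± 0.240). Neither passed the test, and their groups overlapped. Of 5 EGR and NAB genes only NAB1, a corepressor of EGR1, passed the filter, at 2.54 ± 0.192 and 2.15 ± 0.122. EGR2, EGR3 and NAB2 had a row and did not pass it.

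Among 8 tested genes of the MYC network, 0 passed, and 3 were higher and 1 lower at an unadjusted p under 0.05 in limma, with a median log2 difference of 0.43. The 3 were partners of MAX that oppose MYC: MXD3 (1.31 ± 0.571 at high and 2.92 ± 0.295 at low altitude, SD, n = 3), MXI1 (6.12 ± 0.585 and 9.12 ± 1.03) and MXD4 (3.96 ± 0.567 and 5.69 ± 0.360). The groups did not overlap in any of the 3, which were named for their low unadjusted p in limma. Of all tested genes 11.3% had such groups, higher at low altitude. MLXIPL, the glucose-sensing factor also called ChREBP, was at 1.83 ± 0.831 and 0.745 ± 0.314. Limma adjusted p-values of the 4 (Benjamini-Hochberg) were 0.282 to 0.479.

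Of the 13 genes known as targets of AP-1 that are described here, 0 were past the threshold in limma with Benjamini-Hochberg adjustment and 0 were at an unadjusted p under 0.05, with a median log2 difference of −0.01. The chemokine CCL2 (11.3 ± 2.44 and 8.86 ± 7.14, SD, n = 3), the protease inhibitor TIMP1 (7.43 ± 2.66 and 10.3 ± 4.99), TGFB1 (5.91 ± 1.65 and 4.78 ± 0.580) and the membrane protease MMP14 (5.55 ± 2.48 and 4.07 ± 1.29) had overlapping groups.

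Genes known as MYC targets had 0 of 11 past the threshold, 2 at an unadjusted p under 0.05 in limma and a median log2 difference of 0.00. RRS1, a ribosome assembly factor, was at 4.66 ± 1.49 and 7.78 ± 0.1003 (SD, n = 3) and the nucleolar protein NPM1 at 90.9 ± 12.6 and 119 ± 9.01, while the cap-binding EIF4E was at 14.3 ± 1.98 and 12.4 ± 2.67. The transferrin receptor TFRC was at 25.4 ± 1.88 and 16.8 ± 15.5. Of 7 genes for the turnover of JUN, MYC and related proteins, 0 passed and 1 was lower at an unadjusted p under 0.05 in limma. It was FBXW7, the ubiquitin ligase subunit that marks MYC and JUN, at 4.48 ± 0.364 and 3.36 ± 0.518. USP28, which opposes it on MYC, was at 23.7 ± 4.03 and 28.6 ± 2.68, COP1 at 4.81 ± 0.633 and 5.37 ± 0.408 and DET1 at 2.79 ± 0.130 and 2.57 ± 0.0376.

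**Figure D4:**
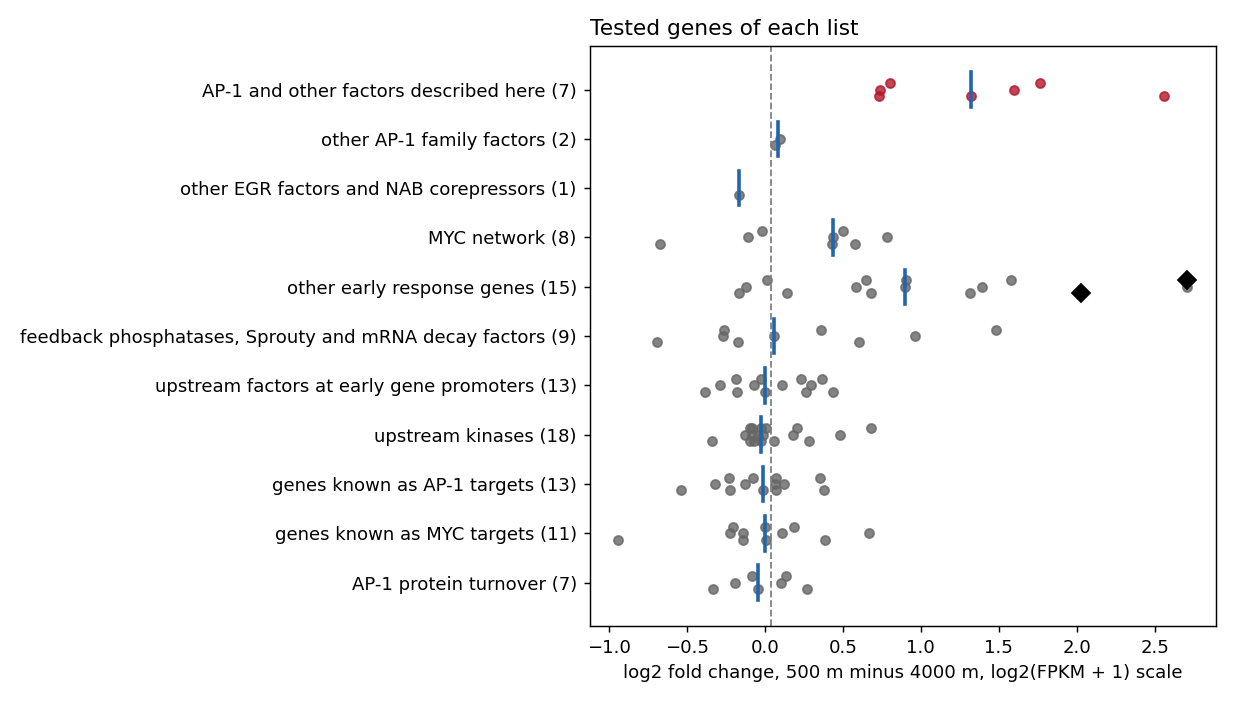
Log2 difference, 500 m minus 4000 m on the log2(FPKM + 1) scale, of each tested gene by list (number tested in parentheses); blue bars are list medians, the dashed line is the median of all tested genes, and black diamonds passed limma with Benjamini-Hochberg adjustment. The 7 factors chosen for this contrast (red) lie between 0.73 and 2.56, the other early response genes have a median of 0.90, and the medians of kinases, promoter factors and targets lie between −0.03 and 0.00.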

How the data were processed

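The authors deposited FPKM values in 1 table, with 25322 pig genes by Ensembl ID and 6 libraries. Per the labels' protocols, total RNA from frozen muscle went into strand-specific dUTP libraries, and the tools listed per the submitters' processing notes are Cufflinks 2.2.1 and TopHat2 2.0.11. What was not given in the sources used here comprises genome build, annotation and filters, and coordinates are left out. A gene ID table supplied symbols (11804 IDs matched, and 1 renamed marker through an alias).

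Values were analysed as log2(FPKM + 1). Genes for which 3 or more libraries reached an FPKM of 1 were fitted with limma 3.58.1 in R 4.3.3 (trend, two-sided, low minus high altitude), with Benjamini-Hochberg adjustment over 10005 genes, threshold 0.05. Folds are ratios of mean FPKM. The genes, lists and naming rule were chosen with earlier results of these data known. The rule named the 7 factors, per list the genes past the threshold and up to 4 more by unadjusted p, and the 3 genes nearest to FOS and to EGR1. SRF and the genes of the closing section outside the rule were named after their values were seen. A listed gene is not reported here and is left out of the list counts. In 107 genes a library was listed at 0 and another at an FPKM of 5 or more. Alternatives were other pseudocounts (0.1, 0.5), filters, scalings, limma options, a replicate block and leaving out each library. Figures were drawn with matplotlib 3.10.9.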

Additional observations from a re-analysis of the deposited data

How the results depend on the processing

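All 7 factors kept a log2 difference above 0 in each fit that held them, with ranges of 2.16 to 3.11 for FOS, 0.51 to 1.01 for JUNB, 1.02 to 2.15 for ATF3, 0.49 to 1.28 for EGR1, 0.65 to 0.91 for MYC, 1.33 to 2.03 for MAFF and 1.04 to 1.82 for CSRNP1. A filter at a mean FPKM of 5 removes EGR1, MYC, CSRNP1, NR4A2 and KLF10, which leaves 4 factors above 0, 3 without overlap and 0 changed pathway genes. The count of factors past the threshold was 0 to 1 on leaving out each library and 1 with array weights. The 1 was FOS each time, and the leave-out fit was that without high altitude library 1, which holds its highest high altitude value. Over all genes 17 passed in that fit and 38 with array weights. Since FOS was listed for this contrast, nothing is read from these calls. Dropping high altitude library 1 alone, or low altitude library 2 alone, left no overlap between the groups in any of the 7. That follows from the values above, since JUNB and EGR1 overlapped only where high altitude animal 1 lay above low altitude animal 2. The share of all tested genes without overlap is not given for these smaller sets of animals, so nothing is read from this count. Over all genes, 23 passed (16 higher, 7 lower): with no filter 6, with array weights 38, with quantile normalization 10, with median-of-ratios scaling 9 and 4 to 21 on leaving out each library. Without high altitude library 2 it was 11, without library 3 of either group 4, and 6 without low altitude library 1. With each library rescaled to the same total, 26 were higher and 6 lower. Changed pathway genes numbered 1 to 3 on leaving out each library.

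Whether the shared replicate numbers pair the animals is not known. Deviations of same-numbered libraries correlated at −0.0154, 0.0949 and −0.141 over genes, and those of differently numbered ones at −0.151 to 0.161. Correlations over all genes cannot exclude something shared that acts on some genes only. With the numbers as a replicate block 19 genes passed over all genes, 0 of the 7 factors, and 4 pathway genes, against 2 without it. The cause of these shifts was not tested. FPKM keeps no read totals, so what depth limits cannot be given.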

Other observations

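Some of the genes nearest to the remaining factors over the 6 libraries are given here, chosen after their values were seen. Among the genes nearest to ATF3 was PPP1R15A (0.30 as the mean absolute difference of centred log2(FPKM + 1)), which reverses the translational block of the stress response, with means of 5.10 ± 1.53 at high and 14.8 ± 7.08 FPKM at low altitude (SD, n = 3). Nearest to MAFF was MYF6 (0.17), a muscle regulatory factor, at 49.9 ± 1.39 and 224 ± 97.4. Nearest to MYC was THYN1 (0.05), at 0.987 ± 0.0726 and 2.25 ± 0.193, and SAP30 (0.06), a subunit of a histone deacetylase complex, at 2.33 ± 0.0565 and 4.67 ± 0.478. Like MYC, both THYN1 and SAP30 had an SD of under 0.1 FPKM at high altitude, which partly follows from their choice as nearest to MYC. Nearest to CSRNP1 were the amino acid transporter SLC16A10 (0.17) and SESN1 (0.18), a sestrin, and nearest to JUNB was CASTOR2 (0.11).

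IER3, an early response gene of the same list, did not follow FOS at low altitude, with 4.62, 1.21 and 1.94 FPKM at 4000 m and 1.59, 3.68 and 2.11 at 500 m. Its highest value of all 6 was in high altitude animal 1.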
